A study of Mus musculus with 8 samples.

Results

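The antioxidant and glutathione enzymes of the mouse retina were followed here as a set of genes listed by name. Of 37 genes listed, 35 had a probe set whose platform annotation gave exactly 1 gene symbol, out of 19938 genes that could be named in this way. *Prdx5* and *Prdx6* had no such probe set and are not analysed here. Where a gene had several probe sets, the probe set with the highest mean over the 8 arrays stood for it, a choice that concerned *Gpx4*, *Prdx1* and *Prdx2*. The arrays (Affymetrix Mouse Gene 1.0 ST, with probes along the exons of each gene) measured total RNA of C57BL/6J retinas, each divided into a superior and an inferior part. The 4 groups, with 2 arrays each, were the superior and the inferior control retina, from mice kept under normoxia, and the superior and the inferior hyperoxia-exposed retina, from mice kept in 75% oxygen for 14 days. Exposure began at 83 to 90 days of age, control mice were of the same age at death, and all mice lived in dim light of 5 lux with 12 hours of light and 12 hours of dark. Each sample pooled tissue of 2 animals, a male and a female, so that the spread between animals cannot be seen within a sample.

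Oxygen that is only partly reduced gives superoxide and hydrogen peroxide, which damage lipids, proteins and DNA, and photoreceptors, with their high oxygen use and unsaturated membrane lipids, are among the cells most exposed to them. Superoxide dismutases turn superoxide into hydrogen peroxide, which catalase, glutathione peroxidases and peroxiredoxins then remove. The peroxidases and peroxiredoxins use glutathione or thioredoxin as the source of electrons. Glutathione is built from cysteine, glutamate and glycine, and many of these genes are driven by the transcription factor NRF2 (gene *Nfe2l2*), which KEAP1 holds in check until oxidants or electrophiles modify it. NRF2 binds the antioxidant response element, a short sequence near the genes it controls.

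Values are log2 signals as deposited by the authors, and a difference of 1 on this scale is a doubling. The median of all 28853 probe sets lay between 6.98 and 7.05 on the 8 arrays. Groups were compared with limma, a linear model in which probe sets lend each other information on their spread. A gene was called at an adjusted p under 0.05, after Benjamini-Hochberg adjustment over the whole table. Nothing in the labels ties arrays that share a replicate number to shared animals, so p-values measure the spread between these samples. The retinal identity of the samples was clear from genes of rods and of Muller cells, the glia of the retina. The summed linear signal was 101900 to 122800 for 14 measured rod genes and 26620 to 31690 for 12 Muller cell genes. The rod signal was not level, and was lowest on the hyperoxia inferior arrays, at 114400 and 101900. In the inferior retina 1 of 14 rod genes had a positive difference after hyperoxia, and 0 were called. Transcripts of neighbouring tissues differed between arrays. Over 19 of 21 lens genes measured, the summed signal was 46860 on control inferior replicate 2 and 1450 to 3715 on the other 7 arrays. Over 14 of 14 genes of the retinal pigment epithelium, it was 3390 and 7095 in control superior retina, 5657 and 10660 in control inferior retina, 10800 and 11630 in hyperoxia superior retina, and 10410 and 9778 in hyperoxia inferior retina.

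Among the antioxidant and glutathione genes, 0 of 35 passed the test after hyperoxia in either region. In the inferior retina, where 0.492% of all probe sets were called, 4 members had an unadjusted p under 0.05 (9.39% of all probe sets, 4.96% higher), and by the methods' t-test 0 passed after adjustment. In the superior retina, where 0.0173% of all probe sets were called, 7 members had an unadjusted p under 0.05 (5.59% of all probe sets, 3.43% higher), and the methods' t-test again gave 0. With the change averaged over both regions, which uses 4 arrays against 4, 0 members were called against 0.568% of all probe sets, and 8 had an unadjusted p under 0.05 (8.98% of all probe sets, 4.96% higher). All members at an unadjusted p under 0.05 in these 3 comparisons had a positive difference.

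The differences were small and mostly positive. The median log2 difference over the 35 genes was 0.05 for the inferior and 0.11 for the superior retina, where the median of all probe sets was 0.01 and 0.00. It stayed above 0 as each array was left out in turn. The range was 0.05 to 0.10 in the inferior and 0.04 to 0.16 in the superior retina. The inferior median was lowest without hyperoxia inferior replicate 2, with 22 members above 0. The superior median was lowest without hyperoxia superior replicate 2, also with 22 members above 0. Differences above 0 were found for 28 members in each region (51.6% of all probe sets in the inferior retina, 50.6% in the superior). The member count was 26 or 27 inferiorly and 25 or 27 superiorly with arrays centred on their medians or quantile normalized. In both regions 23 of 35 genes were above 0, against 27.7% of all probe sets. The inferior and the superior change share no array, but the labels do not say whether superior and inferior parts came from the same animals. They are thus not known to be independent. Both hyperoxia arrays lay above both control arrays for 14 members in the inferior retina (20.5% of all probe sets) and below them for 2 (18.1%). The counts in the superior retina were 15 above (18.7%) and 5 below (17.2%), the latter *Gclc*, *Gclm*, *Srxn1*, *Nfe2l2* and *Sesn2*. Averaged over both regions, 27 members had a difference above 0, against 51.5% of all probe sets. For 30 members in the inferior retina the 95% interval of the difference lay wholly within a 1.5-fold change in either direction, as it did for 88.3% of all probe sets. The exceptions were *Gpx3*, *Slc7a11*, *Gstm1*, *Txnrd2* and *Hmox1*. In the superior retina 29 members were bounded in this way, against 91.2% of all probe sets, and the exceptions were *Sod3*, *Gpx3*, *Gpx7*, *Slc7a11*, *Gstm1* and *Nqo1*. With the regions averaged the count was 33, against 97.1% of all probe sets, all but *Gpx3* and *Gstm1*. The shares of members bounded in this way were no higher than those of all probe sets. Each interval is for a gene by itself, with no adjustment for the number of genes.

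**Figure D1:**
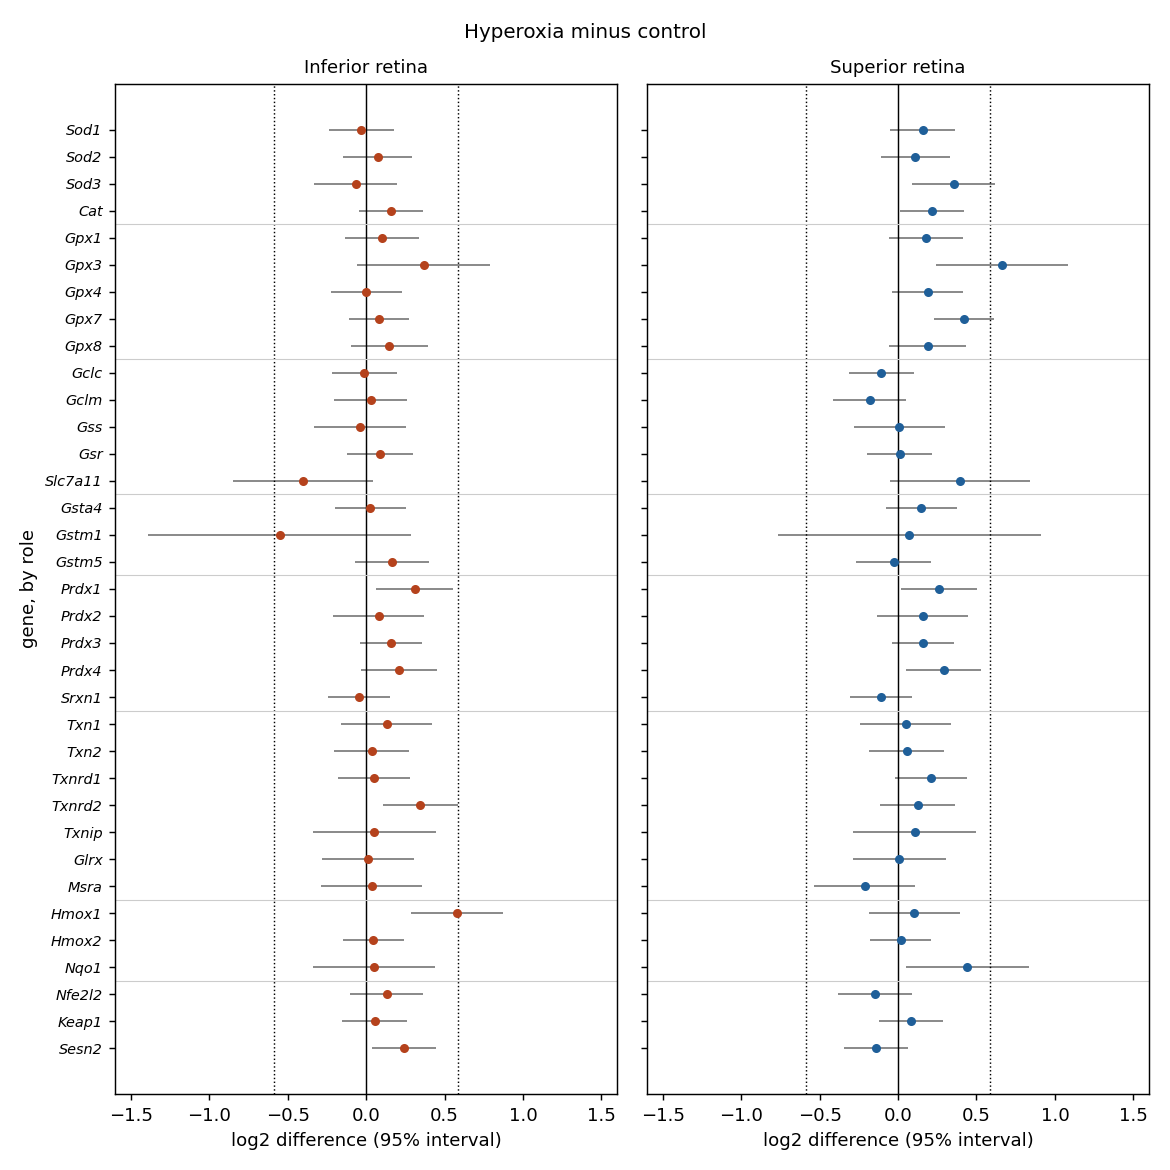
Log2 difference between hyperoxia-exposed and control retina (horizontal axes) for 35 antioxidant and glutathione genes ordered by role (vertical axis), in the inferior (left) and superior (right) retina; points are differences of group means with 2 arrays a group, bars 95% intervals from limma, and dotted lines a 1.5-fold change. Most points lie just above 0, *Hmox1* is highest in the inferior retina at 0.58 and *Gpx3* in the superior retina at 0.66.

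**Figure D2:**
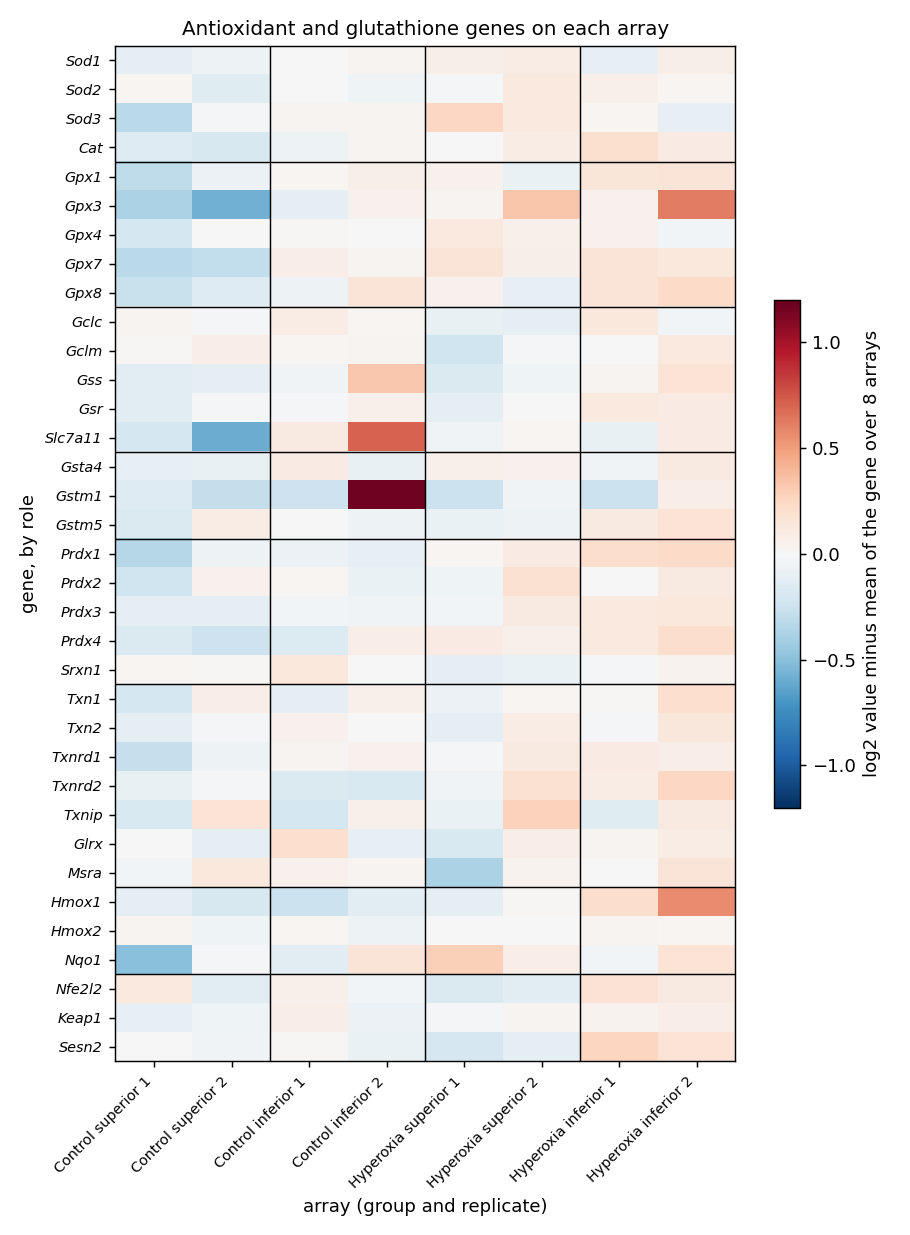
Log2 value of each gene (rows, ordered by role) on each of the 8 arrays (columns) minus the mean of that gene over all arrays, in colour from -1.2 to 1.2. The deepest colour is *Gstm1* on control inferior replicate 2, which lay 1.17 above the mean of that gene.

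To set the expression values beside the sequence that NRF2 reads, the promoter windows of the members were searched for the core of the antioxidant response element, TGACNNNGC, on both strands. Windows ran from 250 bases before to 50 bases after an annotated start in RefSeq (GRCm38.p6). Of 29 measured members with a window in that table, 8 held the motif, or 27.6%, and 12.4% of all 32851 windows and 14.0% of all genes in the table did so. These were *Gclm*, *Gstm5*, *Nfe2l2*, *Prdx1*, *Sesn2*, *Sod1*, *Srxn1* and *Txnrd1*. The stretches below are shown for the 6 genes with a match before the start that were also among the members with the smallest p in at least 1 comparison, to set their letters beside their values. They run 5′ to 3′ on the strand of the gene, and capitals mark the motif, which is written in reverse complement where it lies on the opposite strand.
The *Gclm* stretch is chr3:122245373-122245481 (plus strand), that of *Gstm5* chr3:107895762-107895853 (plus strand), that of *Nfe2l2* chr2:75704845-75704913 (minus strand), that of *Prdx1* chr4:116685416-116685524 (plus strand), that of *Sesn2* chr4:132510457-132510542 (minus strand) and that of *Txnrd1* chr10:82859064-82859172 (plus strand).
Gclm: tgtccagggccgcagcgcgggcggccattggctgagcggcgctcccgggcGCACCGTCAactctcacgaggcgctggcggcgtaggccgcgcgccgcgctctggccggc
Gstm5: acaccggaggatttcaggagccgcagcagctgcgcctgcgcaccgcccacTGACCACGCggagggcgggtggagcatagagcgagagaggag
Nfe2l2: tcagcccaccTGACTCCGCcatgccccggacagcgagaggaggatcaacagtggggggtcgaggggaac
Prdx1: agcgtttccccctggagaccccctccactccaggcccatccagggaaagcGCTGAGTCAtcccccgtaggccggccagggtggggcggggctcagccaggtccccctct
Sesn2: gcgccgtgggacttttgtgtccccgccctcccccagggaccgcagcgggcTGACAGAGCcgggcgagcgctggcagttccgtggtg
Txnrd1: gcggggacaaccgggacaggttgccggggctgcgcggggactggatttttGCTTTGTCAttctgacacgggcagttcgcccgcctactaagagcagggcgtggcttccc
Counted from the annotated start of its window, the motif began 134 bases before in *Gclm*, 133 in *Prdx1* and 92 in *Txnrd1*. It began 42 before in *Gstm5*, 36 in *Sesn2* and 240 in *Nfe2l2*. For *Gclm* and *Txnrd1* that start lies inside the gene, whose span begins at chr3:122245487 and chr10:82833951. The 8 genes with the motif had log2 differences after hyperoxia of -0.04 to 0.31 in the inferior retina (median 0.09) and of -0.18 to 0.26 in the superior retina (median -0.07). The 21 members with a window and no match ranged from -0.55 to 0.37 (median 0.07) and from 0.01 to 0.66 (median 0.16). A match is a run of letters and not a bound site, and elements farther from the start were not searched.

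Heme oxygenases break down heme into biliverdin, iron and carbon monoxide, and NQO1 reduces quinones. *Hmox1*, the inducible heme oxygenase, had the largest difference of the set in the inferior retina. Its log2 values were 6.88 and 7.01 in control inferior and 7.34 and 7.70 in hyperoxia inferior retina, and they were 7.03 and 6.95 in control superior and 7.03 and 7.15 in hyperoxia superior retina. Both hyperoxia inferior arrays lay above the other 6. The inferior change was 0.58 on the log2 scale (standard error 0.13, 95% interval 0.29 to 0.87, adjusted p = 0.134), a fold ratio of 1.49, and the superior change was 0.10. It missed the threshold under every alternative tried, with an adjusted p of 0.0621 to 0.463. Between the regions of hyperoxia-exposed retina *Hmox1* differed by 0.43 (adjusted p = 0.424), and by 0.25 without hyperoxia inferior replicate 2. On the same arrays, 13 of 19 measured genes of microglia and macrophages, cells in which *Hmox1* is known to be active, were called higher in the inferior retina after hyperoxia, and their summed linear signal was 1776 and 1856 on the control inferior and 4687 and 5144 on the hyperoxia inferior arrays. Their part in the *Hmox1* value was not tested. Many of these marker genes are on the paper's list of genes regulated differently between the regions on these arrays. Their calls are thus not a separate observation.

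*Hmox2*, the constitutive heme oxygenase, was among the steadiest members. Its values on all 8 arrays lay between 9.22 and 9.32, and its changes were 0.05 (95% interval -0.15 to 0.24) in the inferior and 0.02 (95% interval -0.18 to 0.21) in the superior retina. *Nqo1*, often taken as a readout of NRF2, was at 5.72 and 6.21 in control superior against 6.51 and 6.30 in hyperoxia superior retina. In the inferior retina it was at 6.10 and 6.38 on the control and 6.20 and 6.39 on the hyperoxia arrays. The groups did not overlap in the superior retina, where the difference was 0.44 (standard error 0.17, adjusted p = 0.862), and overlapped in the inferior retina, where it was 0.05. Control superior replicate 1 was the lowest array, and without it the superior difference was 0.20.

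Among the regulators, *Nfe2l2* and *Sesn2* had their highest group mean in the hyperoxia-exposed inferior retina and their lowest in the hyperoxia-exposed superior retina. *Sesn2* encodes sestrin 2, a stress-induced protein that restrains mTOR signalling and favours the breakdown of KEAP1. It was at 7.73 and 7.68 on the control superior, 7.74 and 7.65 on the control inferior, 7.52 and 7.60 on the hyperoxia superior, and 7.99 and 7.89 on the hyperoxia inferior arrays. After hyperoxia it differed by 0.24 in the inferior retina (standard error 0.09, adjusted p = 0.444) and by -0.14 in the superior retina (adjusted p = 0.908), with no overlap between arrays in either region. Inferior against superior, the hyperoxia-exposed retinas differed by 0.37 (95% interval 0.17 to 0.58, adjusted p = 0.276), the control retinas by -0.01. The test of the difference between the regional changes gave 0.38 (standard error 0.13, adjusted p = 0.779).

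*Nfe2l2* was at 8.67 and 8.43 on the control superior, 8.61 and 8.52 on the control inferior, 8.38 and 8.42 on the hyperoxia superior and 8.73 and 8.66 on the hyperoxia inferior arrays. Its regional difference was 0.30 in hyperoxia-exposed retinas (standard error 0.10, adjusted p = 0.505) and 0.02 in control retinas. *Keap1* was at 8.48 and 8.53 on the control superior, 8.66 and 8.51 on the control inferior, 8.56 and 8.61 on the hyperoxia superior, and 8.62 and 8.66 on the hyperoxia inferior arrays, and its change averaged over both regions was 0.07 (adjusted p = 0.8).

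**Figure D3:**
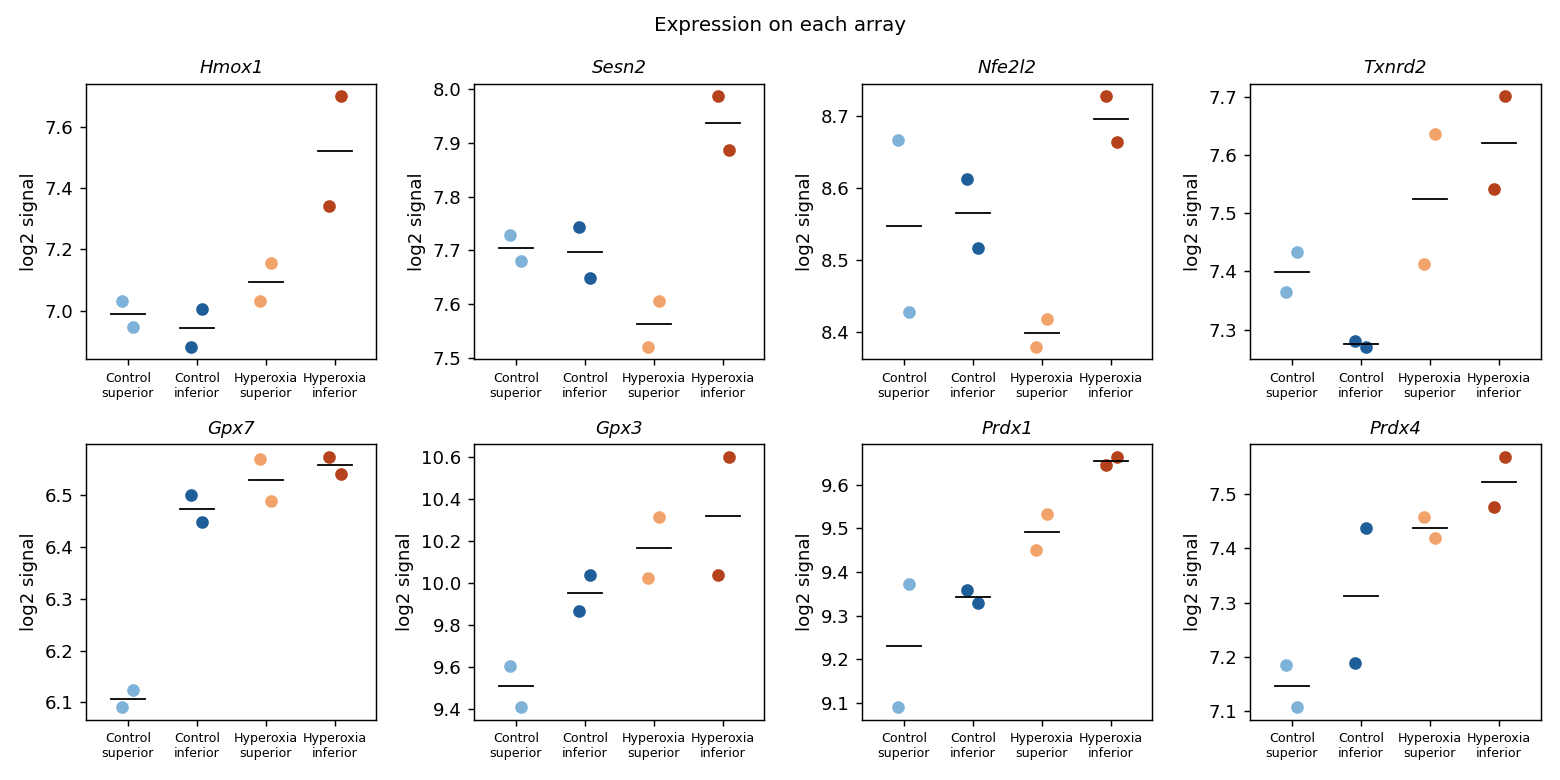
Log2 signal (vertical axes) of *Hmox1*, *Sesn2*, *Nfe2l2*, *Txnrd2*, *Gpx7*, *Gpx3*, *Prdx1* and *Prdx4* in the 4 groups (horizontal axes), with a point for each array, a line for the mean of each pair, and vertical axes that do not start at 0. The hyperoxia inferior arrays are the highest for *Hmox1*, at 7.34 and 7.70, and the control superior arrays the lowest for *Gpx7*, at 6.09 and 6.12.

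Peroxiredoxins reduce hydrogen peroxide with electrons from thioredoxin, and 4 of the 5 genes in this group had a positive difference in each region. *Prdx1*, the cytosolic form, was at 9.09 and 9.37 on the control superior, 9.36 and 9.33 on the control inferior, 9.45 and 9.53 on the hyperoxia superior, and 9.65 and 9.66 on the hyperoxia inferior arrays. All 4 hyperoxia-exposed arrays lay above all 4 control arrays. The change averaged over both regions was 0.29 (95% interval 0.11 to 0.46, adjusted p = 0.246), with 0.31 inferiorly and 0.26 superiorly. The superior value was 0.12 without control superior replicate 1 and 0.40 without replicate 2. *Prdx3*, the mitochondrial form, was the only other member with this separation, at 9.96 to 10.04 on the control and 10.05 to 10.20 on the hyperoxia-exposed arrays, a change of 0.16 (adjusted p = 0.484). These 2 of 35 genes compare with 2.90% of all probe sets.

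*Prdx4*, the form of the endoplasmic reticulum, was at 7.19 and 7.11 on the control superior, 7.19 and 7.44 on the control inferior, 7.46 and 7.42 on the hyperoxia superior, and 7.48 and 7.57 on the hyperoxia inferior arrays. Control inferior replicate 2 overlapped with the hyperoxia superior arrays, and the averaged change was 0.25 (95% interval 0.08 to 0.42, adjusted p = 0.324). *Prdx2*, a cytosolic form that is also abundant in red blood cells, differed by 0.08 (95% interval -0.21 to 0.37) and 0.16 (95% interval -0.13 to 0.45) in the inferior and superior retina. *Srxn1*, which repairs overoxidized peroxiredoxins and is a strong NRF2 target, did not share the positive sign, with differences of -0.04 (95% interval -0.24 to 0.15) and -0.11 (95% interval -0.31 to 0.09).

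In the thioredoxin system the mitochondrial reductase had the largest difference in the inferior retina. *Txnrd2* was at 7.28 and 7.27 on the control inferior and 7.54 and 7.70 on the hyperoxia inferior arrays, a difference of 0.35 (95% interval 0.11 to 0.59, adjusted p = 0.307). The superior values, at 7.37 and 7.43 on the control and 7.41 and 7.64 on the hyperoxia arrays, overlapped. The cytosolic reductase *Txnrd1* was at 8.35 and 8.36 against 8.41 and 8.39 in the inferior retina and at 8.04 and 8.25 against 8.29 and 8.42 in the superior, with differences of 0.05 and 0.21 (adjusted p = 0.886 in the superior retina). *Txn1* and *Txn2*, the cytosolic and mitochondrial thioredoxins, *Txnip*, which binds and inhibits thioredoxin, *Glrx*, a glutaredoxin, and *Msra*, which repairs oxidized methionine, had changes of 0.01 to 0.13 in the inferior retina. Superiorly these 5 genes ranged from -0.21 for *Msra* (95% interval -0.54 to 0.11) to 0.11 for *Txnip*.

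The superoxide dismutases and catalase showed small differences. *Sod1*, the cytosolic enzyme, was at 12.04 to 12.24 on all arrays, and *Sod2*, the mitochondrial enzyme, at 10.86 to 11.12. The 95% intervals for the inferior difference were -0.24 to 0.18 and -0.15 to 0.29. In the superior retina *Sod1* differed by 0.16 (95% interval -0.05 to 0.37), with no overlap between arrays. *Sod2* differed there by 0.11 (95% interval -0.11 to 0.33), and its arrays overlapped. *Cat*, which breaks down hydrogen peroxide in peroxisomes, was at 8.26 and 8.22 on the control superior, 8.36 and 8.44 on the control inferior, 8.41 and 8.50 on the hyperoxia superior and 8.60 and 8.51 on the hyperoxia inferior arrays. Within each region the hyperoxia arrays were above the control arrays, and the averaged change was 0.19 (95% interval 0.04 to 0.33, adjusted p = 0.411). *Sod3*, the extracellular enzyme, was at 6.54 and 6.85 in control superior against 7.11 and 6.98 in hyperoxia superior retina, a difference of 0.35 (standard error 0.12, adjusted p = 0.797). In the inferior retina it was at 6.90 and 6.89 on the control and at 6.88 and 6.77 on the hyperoxia arrays, a difference of -0.07. The test of the difference between these changes gave -0.42 (adjusted p = 0.804). Without control superior replicate 1 the superior difference was 0.20 and the difference between the changes -0.27.

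All 5 glutathione peroxidases had positive differences in the superior retina. *Gpx7*, an enzyme of the endoplasmic reticulum, had a low spread (residual SD 0.04, as for *Hmox2*). Its values, like those of *Nqo1*, lay below the median of all probe sets on every array. It was at 6.09 and 6.12 on the control superior arrays and between 6.45 and 6.57 on the other 6. This gave a change after hyperoxia of 0.42 in the superior retina (standard error 0.08, adjusted p = 0.445) and of 0.08 in the inferior retina, and a regional difference of 0.37 in control retinas (adjusted p = 0.85) and of 0.03 in hyperoxia-exposed retinas. The superior change and the control regional difference rest on the same control superior arrays and are not separate observations. The test of the difference between the regional changes gave -0.34 (adjusted p = 0.79).

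*Gpx3*, the secreted plasma form, was likewise lowest on the control superior arrays, with a wider spread. Its values were 9.61 and 9.41 on the control superior, 9.87 and 10.04 on the control inferior, 10.02 and 10.32 on the hyperoxia superior, and 10.04 and 10.60 on the hyperoxia inferior arrays. The superior change was 0.66 (standard error 0.19, adjusted p = 0.708), a fold ratio of 1.58 (95% interval 1.18 to 2.12), and the inferior change was 0.37 (95% interval -0.06 to 0.79, adjusted p = 0.605). Averaged over both regions, the change was 0.51 for *Gpx3* (95% interval 0.22 to 0.81, adjusted p = 0.225) and 0.25 for *Gpx7* (95% interval 0.12 to 0.39, adjusted p = 0.174), the smallest adjusted p of any member in that comparison. Between control and hyperoxia superior retina, the group means of *Gpx3*, *Gpx7*, *Nqo1* and *Sod3* differed in the same direction as the pigment epithelium genes, whose median deviation from their own means was -0.85 and -0.17 in control superior against 0.40 and 0.47 in hyperoxia superior retina. Within the control superior pair *Gpx3* was lower and *Gpx7* nearly level on the array with the higher median, and *Nqo1* and *Sod3* were higher. In the inferior retina these medians were -0.355 and 0.34 in control against 0.02 and 0.20 in hyperoxia-exposed retina. Of the 14 pigment epithelium genes, 13 had a positive difference in the superior retina and 0 were called. The part of this tissue in the values of these 4 genes was not tested, and in bulk tissue fewer cells of a type and less RNA per cell cannot be told apart.

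The remaining peroxidases had smaller changes after hyperoxia averaged over both regions, 0.14 for *Gpx1*, 0.17 for *Gpx8* and 0.10 for *Gpx4*. *Gpx1*, the main cytosolic form, was at 8.10 and 8.34 on the control superior, 8.44 and 8.48 on the control inferior, 8.46 and 8.33 on the hyperoxia superior and 8.55 and 8.57 on the hyperoxia inferior arrays. *Gpx8*, a second form of the endoplasmic reticulum, was at 7.99 and 8.11, 8.20 and 8.41, 8.31 and 8.16, and 8.41 and 8.49 in the same order of groups. For both genes the inferior arrays lay above the superior arrays within each oxygen condition, with an averaged regional difference of 0.20 (adjusted p = 0.576) for *Gpx1* and 0.24 (adjusted p = 0.521) for *Gpx8*. *Gpx4*, which removes lipid hydroperoxides from membranes and is needed by photoreceptors, was at 11.41 to 11.74 on all arrays and differed by 0.19 in the superior retina (95% interval -0.04 to 0.42) and by less than 0.01 in the inferior.

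The genes of glutathione synthesis and recycling had medians near 0 in both regions, -0.01 and 0.01. *Gclc* and *Gclm*, the catalytic and modifier subunits of the enzyme that limits glutathione synthesis, differed by -0.01 and 0.03 in the inferior retina. The superior differences were -0.11 and -0.18, with *Gclm* at 8.55 and 8.63 on the control and 8.30 and 8.52 on the hyperoxia arrays (adjusted p = 0.906). The inferior arrays of *Gclm* were at 8.56 and 8.58 in control and 8.54 and 8.66 in hyperoxia-exposed retina, above both hyperoxia superior arrays. *Gsr*, glutathione reductase, differed by 0.09 and 0.01. *Gss*, glutathione synthetase, differed by -0.04 and 0.01 after hyperoxia, and was the 1 member with all 4 inferior arrays above all 4 superior arrays, against 1.69% of all probe sets. It was at 8.20 and 8.57 on the control inferior, 8.28 and 8.41 on the hyperoxia inferior, 8.11 and 8.14 on the control superior arrays, and the hyperoxia superior arrays had 8.07 and 8.19, an averaged difference of 0.24 (adjusted p = 0.59). Without control inferior replicate 2, the array with the highest lens signal, this was 0.14.

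*Slc7a11*, the transporter that brings in cystine for glutathione synthesis, and *Gstm1*, a glutathione S-transferase, varied most between arrays of a group. *Slc7a11* was at 7.43 and 7.04 on the control superior, 7.75 and 8.34 on the control inferior, 7.60 and 7.66 on the hyperoxia superior and 7.55 and 7.73 on the hyperoxia inferior arrays. The change after hyperoxia was -0.40 (95% interval -0.85 to 0.04) inferiorly and 0.39 (95% interval -0.05 to 0.84) superiorly, with no overlap between arrays in either region, and the test of the difference gave -0.80 (standard error 0.28, adjusted p = 0.79). Without control inferior replicate 2 this difference was -0.50 and the inferior change was -0.11. Without control inferior replicate 1 they were -1.09 and -0.70. The control regions differed by 0.81 (standard error 0.20, adjusted p = 0.85), and by 0.52 without control inferior replicate 2. The hyperoxia-exposed regions differed by 0.01 and overlapped.

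*Gstm1* was at 9.94 on control inferior replicate 2 and between 8.48 and 8.84 on the other 7 arrays. The control regional difference was 0.68 (95% interval -0.15 to 1.52, adjusted p = 0.946) and the inferior change after hyperoxia -0.55 (95% interval -1.39 to 0.29, adjusted p = 0.698). Without control inferior replicate 2 these were -0.02 and 0.16. Without control inferior replicate 1, which leaves that array to stand for the group, they were 1.39 (adjusted p = 0.0194) and -1.26 (adjusted p = 0.0187), and these were the only calls of a member in any of the 7 comparisons under any alternative. Control inferior replicate 2 is the array with the high lens signal. Over the 19 lens genes its median deviation was 2.38, against -0.62 to 0.07 on the other arrays. The part of lens tissue in the values of *Gstm1*, *Slc7a11* and *Gss* was not tested. *Gstm1* belongs to a family of closely similar genes, and signal shared with its relatives cannot be told apart here.

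The other transferases were steady. *Gsta4*, which conjugates the lipid peroxidation product hydroxynonenal, was at 9.97 and 9.98 on the control superior, 10.16 and 9.98 on the control inferior, 10.13 and 10.12 on the hyperoxia superior and 10.02 and 10.18 on the hyperoxia inferior arrays, an averaged change of 0.09 (adjusted p = 0.76). *Gstm5* was at 9.08 and 9.34 on the control superior, 9.25 and 9.19 on the control inferior, 9.17 and 9.19 on the hyperoxia superior, and 9.36 and 9.41 on the hyperoxia inferior arrays, and its regional difference in hyperoxia-exposed retinas was 0.20 (adjusted p = 0.649).

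**Figure D4:**
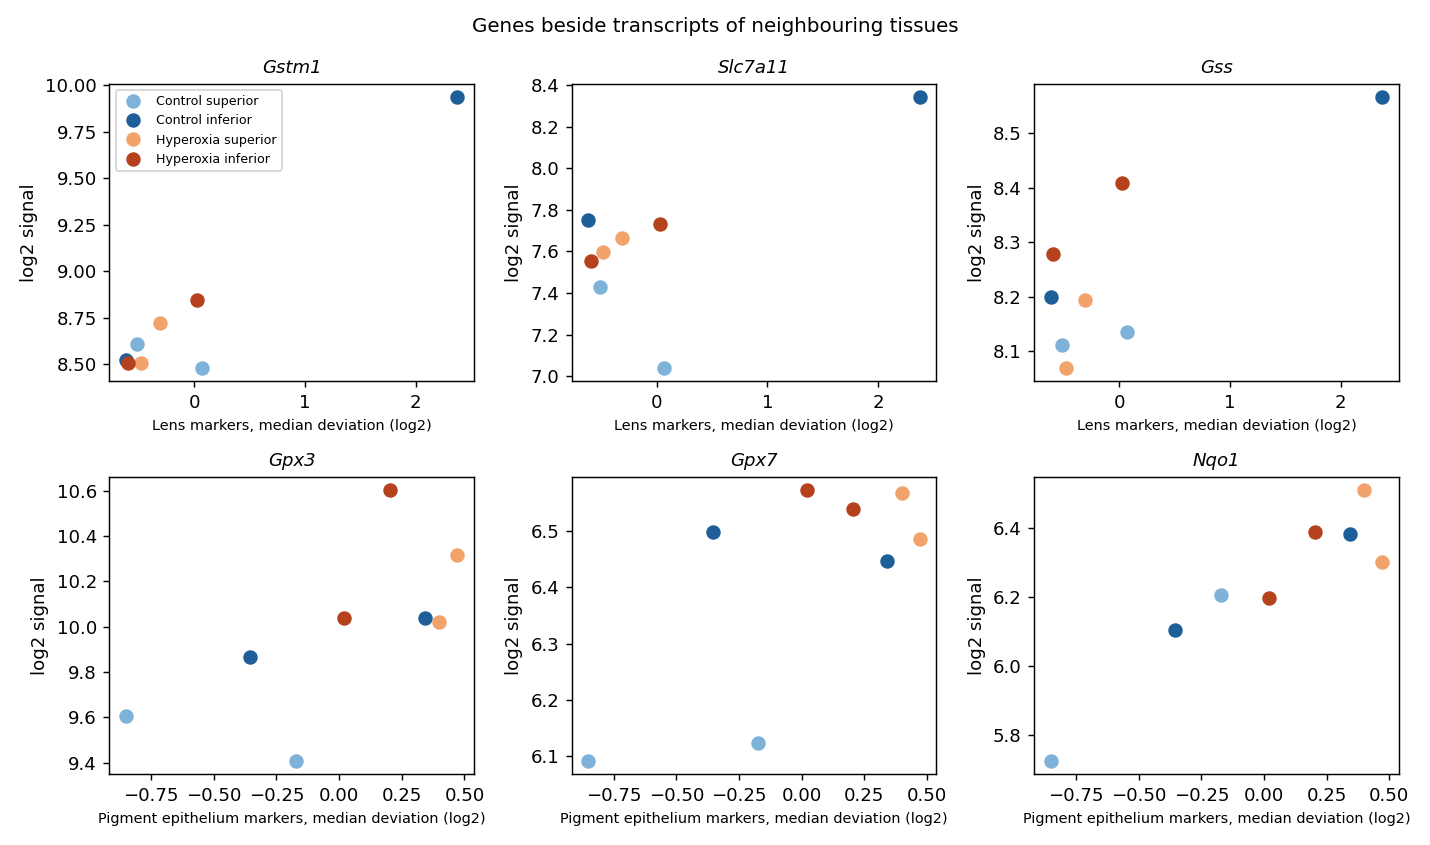
Log2 signal of *Gstm1*, *Slc7a11* and *Gss* (top, vertical axes) against the median log2 deviation of 19 lens genes on the same array (horizontal axes), and of *Gpx3*, *Gpx7* and *Nqo1* (bottom) against that of 14 pigment epithelium genes; each point is 1 of 8 arrays, coloured by group. Control inferior replicate 2 stands alone at a lens deviation of 2.38, where *Gstm1* is at 9.94.

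Between the regions, 0 of 35 members were called in control retinas, where 0% of all probe sets passed, and 4 had an unadjusted p under 0.05 (5.3% of all probe sets, 2.49% higher). These were *Gpx7*, *Slc7a11*, *Gpx8* and *Gpx3*, all higher in the inferior retina. In hyperoxia-exposed retinas 0 members were called, against 0.139% of all probe sets, and *Sesn2*, *Hmox1* and *Nfe2l2* had an unadjusted p under 0.05 and were higher in the inferior retina (8.5% of all probe sets, 4.25% higher). Averaged over both oxygen conditions 0 were called, against 0.0173%, and 6 passed 0.05 without adjustment (7.87%). By the methods' t-test, after adjustment over the whole table, the count was 0 in each of these comparisons. The paper lists *Slc7a11* among its genes of higher expression in inferior control retina, at a fold difference above 1.5. The median difference over the members was 0.09 in control and 0.10 in hyperoxia-exposed retinas, and 28 and 27 of 35 were higher in the inferior retina, against 50.7% and 50.9% of all probe sets. Without hyperoxia superior replicate 1 the median in hyperoxia-exposed retinas was 0.03, with 21 members higher. Without control superior replicate 1 the median in control retinas was 0.06, with 26 higher. The median deviation of the members from their own means was -0.13 and -0.06 on the control superior arrays. On the other arrays it was -0.04 to 0.11. The control regional difference and the superior change after hyperoxia share the control superior arrays and are not separate observations. Arrays did not overlap and were higher in the inferior retina for 14 members in control (17.5% of all probe sets) and 17 in hyperoxia-exposed retinas (20%), and lower for 1 (16.7%) and 2 (18.5%). The 95% interval lay within a 1.5-fold difference for 31 and 33 members, against 90.8% and 89.5% of all probe sets.

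**Figure D5:**
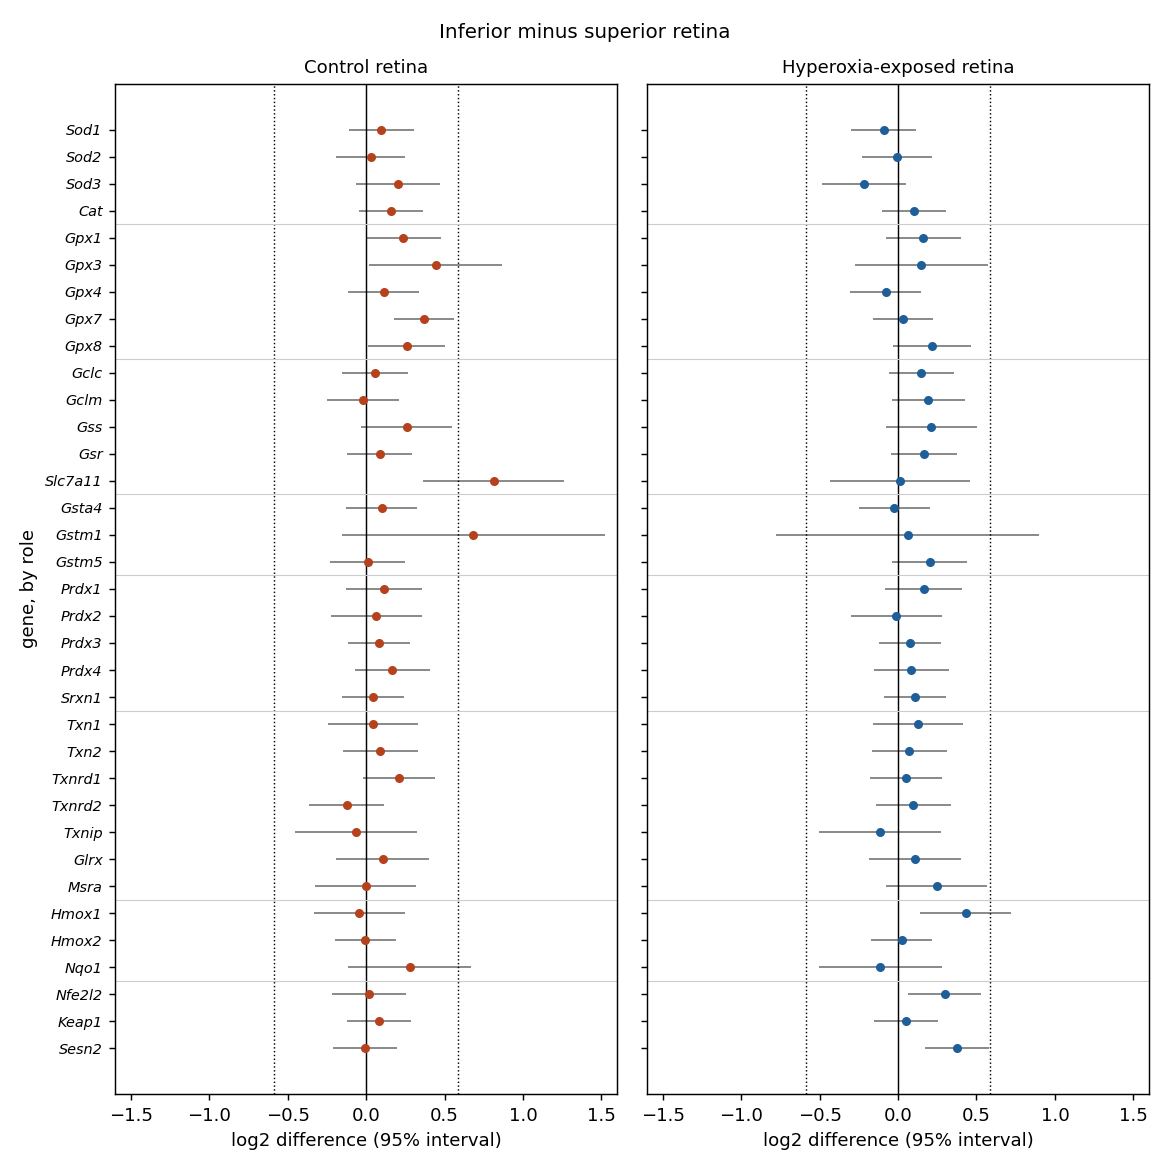
Log2 difference between inferior and superior retina (horizontal axes) for the 35 genes ordered by role (vertical axis), in control (left) and hyperoxia-exposed (right) retinas; points are differences of group means with 2 arrays a group, bars 95% intervals from limma, and dotted lines a 1.5-fold difference. *Slc7a11*, at 0.81, and *Gstm1*, at 0.68 with a wide interval, are the highest in control retinas. Without control inferior replicate 2 they are at 0.52 and -0.02, and without control inferior replicate 1 at 1.11 and 1.39. *Hmox1*, at 0.43, and *Sesn2*, at 0.37, are the highest in hyperoxia-exposed retinas.

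The change after hyperoxia was not shown to differ between the regions for any member. At an adjusted p under 0.05, 0 of 35 passed the test of the difference, against 0.00347% of all probe sets, and 5 had an unadjusted p under 0.05, against 6.04%. Of these, *Sesn2* and *Hmox1* had the higher difference in the inferior retina, and *Slc7a11*, *Gpx7* and *Sod3* in the superior retina. The smallest adjusted p was 0.779, and the methods' t-test gave 0 after adjustment. This test is the least precise, and 24 members had an interval within 1.5-fold, against 68.1% of all probe sets. In 4 of 35 members (*Sod3*, *Slc7a11*, *Nfe2l2* and *Sesn2*) the arrays did not overlap in either region and the differences had opposite signs, a pattern found in 5.2% of all probe sets.

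Other genes of the pathway, taken from lists drawn up by function, gave few calls. Of 33 further glutathione enzymes and transporters measured, 0 were called in any comparison. The lowest p-values in each region after hyperoxia were those of *Slc1a1*, a carrier of glutamate and cysteine, at 0.47 in the inferior retina (adjusted p = 0.117) and 0.37 with the regions averaged (adjusted p = 0.0805), and of *Mgst1*, a microsomal transferase, at 0.79 in the superior retina (adjusted p = 0.543). Of 37 NRF2 partners and further targets 0 were called, with *Aox1*, an aldehyde oxidase, at 0.51 in the inferior retina (adjusted p = 0.272) and *Ephx1*, an epoxide hydrolase, at 0.43 in the superior retina (adjusted p = 0.792). Of 24 oxidant-producing enzymes 0 were called. In the inferior retina 6 of them had an unadjusted p under 0.05, with positive differences in *Ncf1*, *Ncf4* and *Cyba* and negative ones in *Duox2*, *Ero1a* and *Ero1b*, of which *Duox2*, an oxidase that makes hydrogen peroxide, was at -0.41 (adjusted p = 0.461). *Ncf4* and *Ncf1*, subunits of the phagocyte NADPH oxidase, were at 0.53 (adjusted p = 0.0799) and 0.46 (adjusted p = 0.18) in the inferior retina, where the microglia and macrophage genes were higher, and the part of those cells was not tested.

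Of 25 further thioredoxin family and repair genes, 1 (*Cp*) was called in the inferior retina after hyperoxia, against 0.492% of all probe sets, and 2 (*Cp* and *Pon3*) with the change averaged over both regions, against 0.568%. *Cp* encodes ceruloplasmin, a copper protein that oxidizes ferrous iron. It was at 10.84 and 10.80 on the control inferior and 11.54 and 11.47 on the hyperoxia inferior arrays, and rose there by 0.69 (standard error 0.09, adjusted p = 0.0188). In the superior retina it was at 10.84 and 10.69 on the control and at 11.06 and 11.10 on the hyperoxia arrays, a difference of 0.31 (adjusted p = 0.723). The hyperoxia inferior arrays were the highest and the control arrays the lowest. On the same arrays 12 of 12 measured glial stress genes were called higher in the inferior retina and 2 superiorly. Many of these genes are on the paper's list of genes regulated differently between the regions on these arrays. Their calls are thus not a separate observation, and their part in the *Cp* value was not tested. The inferior call was lost without either control inferior or either hyperoxia inferior array (adjusted p from 0.0591 to 0.114). *Pon3*, a paraoxonase that hydrolyses lactones, rose by 0.58 averaged over both regions (standard error 0.09, adjusted p = 0.0438). It was at 6.16 and 6.35 on the control superior, 6.60 and 6.98 on the control inferior, 7.13 and 7.02 on the hyperoxia superior, and 7.09 and 7.16 on the hyperoxia inferior arrays. As for *Gpx7* and *Gpx3*, the control superior arrays were the lowest, and the pigment epithelium medians given above were higher on the hyperoxia superior than on the control superior arrays. Their part in the *Pon3* value was not tested. Its call was lost without any 1 array other than control inferior replicate 2 (adjusted p from 0.057 to 0.19).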

How the data were processed

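Retinal RNA was measured on 8 arrays, 2 in each of 4 groups taken from the labels. The authors imported core probes into Partek, corrected the background by RMA and summarized probe sets by median polish, and deposited log2 values (software versions not given in the sources used here). No normalization was added, and 0 of the value columns were left unmapped. Probe sets were named from the platform annotation, in which 21789 of 28853 had 1 gene symbol, 1621 several and 5443 none listed. Entrez IDs matched to RefSeq GRCm38.p6 changed 0 member symbols.

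Using limma 3.58.1 (R 4.3.3), group means were estimated from the 8 arrays together, which gave 4 residual and 4.47 prior degrees of freedom. The 7 comparisons were hyperoxia against control and inferior against superior retina, each within the levels of the other factor and averaged over them, and the interaction. Intervals are at 95% from the same fit. The alternatives changed the scaling (arrays centred on their medians, or quantile normalized), the probe sets (without those of mean under 6, those with 1 symbol, or averaged by gene), the model (a variance trend, a robust prior, replicate number as a block, the methods' t-test without moderation) or the arrays (those of the comparison alone, or each left out). Values on every array are given for called members, the 6 members with the smallest p in each comparison and 1 leading member of each of 8 role groups. Members of other lists were named when called, or for the smallest p after hyperoxia, and only part of those are given. The members and lists were chosen with earlier results of these data known. The number of arrays limits the precision of every value.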

Additional observations from a re-analysis of the deposited data

How the results depend on the processing

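The count of members called was 0 under each alternative tried, with 1 exception. A fit with only the arrays of the comparison was run for the 4 comparisons between 2 groups, and the others for all 7. Leaving out each array in turn gave 0 to 1 in hyperoxia against control in the inferior retina and 0 to 1 in inferior against superior in control retinas, and 0 in the other comparisons. The 1 was *Gstm1*, without control inferior replicate 1. With an array left out, a group of 1 array was assumed to vary like the others. The differences of the members with the 6 smallest p in a comparison, and of the leading member of each role, kept their sign and their side of the threshold under every alternative. *Gstm1*, outside those lists, turned from -0.55 to 0.16 in the inferior retina after hyperoxia and from 0.68 to -0.02 between the control regions without control inferior replicate 2. For *Cp* and *Pon3* the methods' t-test gave an adjusted p of 0.142 to 0.37 in their comparisons, and *Cp* missed the threshold with only the inferior arrays in the fit (adjusted p = 0.125). *Cp* averaged over both regions was called (adjusted p = 0.015) and had an adjusted p of 0.0366 to 0.0901 as each array was left out. The number of all probe sets called, which serves as the background, was 142 in the inferior retina after hyperoxia and 374 with a variance trend, 259 without dim probe sets, 39 with only the arrays of the comparison and 2 by the methods' t-test.

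With the replicate number as a block, 0 members were called in each comparison, and over all probe sets 127 inferiorly and 2 superiorly after hyperoxia, against 142 and 5 without it. The deviations of replicate 1 from the group mean correlated between groups at -0.02 to 0.14 over 28853 probe sets, so the numbers were not shown to pair the arrays. The authors described experimental replicates run independently, and the labels do not say whether the number marks a run. The median deviation of the members was higher on replicate 2 in each group. It was -0.13 and -0.06 in control superior and 0.01 and 0.03 in control inferior retina. In hyperoxia-exposed retina it was -0.04 and 0.05 superiorly and 0.05 and 0.11 inferiorly.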

Other observations

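The second probe sets of *Gpx4*, *Prdx1* and *Prdx2*, which were left out because their mean signal was lower, differed in part from the values described. For *Prdx1* the second probe set was at 8.70 and 9.11 on the control superior, 9.07 and 9.16 on the control inferior, 9.06 and 9.23 on the hyperoxia superior and 9.28 and 9.31 on the hyperoxia inferior arrays. Its change averaged over both regions was 0.21 (adjusted p = 0.577), and here the hyperoxia superior arrays overlapped with the control arrays. The inferior change of *Prdx1* was 0.18 on the second probe set and 0.31 on the first. For *Prdx2* and *Gpx4* the averaged changes were 0.11 (adjusted p = 0.669) and 0.08 (adjusted p = 0.787). Between the regions of hyperoxia-exposed retina, *Prdx2* differed by 0.14 on the second probe set and by -0.01 on the first.

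The residual SD within groups, on the log2 scale, ran from 0.04 for *Gpx7* and *Hmox2* to 0.52 for *Gstm1* among the 35 genes, with *Slc7a11* at 0.26, *Gpx3* at 0.24, *Nqo1* at 0.22 and *Txnip* at 0.22 as the next widest. *Txnip* was higher on replicate 2 than on replicate 1 in each of the 4 groups, at 7.34 and 7.68, 7.31 and 7.58, 7.43 and 7.80, and 7.37 and 7.62 in the control superior, control inferior, hyperoxia superior and hyperoxia inferior retina.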
